A study of Caenorhabditis elegans with 2 samples.

Results

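LIN-26 is a zinc-finger protein that epidermal cells of the nematode Caenorhabditis elegans need for their fate. Its binding was mapped by ChIP-seq, in which chromatin carrying a tagged protein is precipitated and the recovered DNA is sequenced. The animals were 2 biological replicates of 1 group, harvested whole as young adults (64 hours) of cultures synchronised by bleaching and starvation as L1 larvae. Both replicates were of strain RW12178, in which CRISPR placed GFP at lin-26 (st12178, with a loxP-flanked unc-119(+) marker) in an unc-119(tm4063) III background. No untagged or wild-type group was analysed here, so no condition is compared. The description states that an anti-GFP antibody was used, and the antibody field names lin-26. Whole animals mix all tissues, so binding in few cells and weak binding in many cells cannot be told apart.

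The genes described are 6 regulators of developmental timing and molting, out of 19973 protein-coding genes: myrf-1, myrf-2, lin-46, nhr-85, kin-20 and lin-42. They were chosen by a measured value: each holds a peak summit in its promoter window in the thresholded list of both replicates. The window covers 1000 bp before and 200 bp after any annotated 5' end of the gene. Of all protein-coding genes, 6.65% (1329 genes) met that rule. The presence of the 6 promoter summits, their signal and their irreproducible discovery rate (IDR) in that list are therefore a description and carry no test. The IDR given here is the global one. It estimates what share of the peaks ranked at least as reproducible would fail to recur between the inputs compared. A low value therefore marks a more reproducible peak. Within these genes and 5 kb on either side lay 10 peaks past an IDR of 0.01, out of 3187 such peaks on the 6 nuclear chromosomes.

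Heterochronic genes set the order of larval cell fates in C. elegans, and a linked rhythm of gene activity times each molt, when the epidermis builds a fresh cuticle and sheds the old one. MicroRNAs of the lin-4 and let-7 families drive stage transitions by repressing early-acting regulators. The 6 genes fall into transcription factors that act on that programme (myrf-1, myrf-2, nhr-85), a heterochronic effector (lin-46), and worm relatives of animal clock components (kin-20, lin-42).

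The sequence under 7 of the 10 summits is shown, with a stretch beside an eighth, because its repeats and motifs differ from summit to summit; that of nhr-85 is not shown. Each line is read 5′ to 3′ on the strand of the gene, on assembly ce11 (WBcel235). Lines give 151 bp centred on the summit without bases of annotated UTRs, which shortens that of lin-46. The line for lin-42 isoform a differs: its summit lies in a 5' UTR, so the rest of the peak upstream of it is given and the summit is not in the line. Capitals mark matches, on either strand, to the GA repeat GAGAGA, the MYRF site CTGGCAC known from mouse, the 9-letter GAGACGCAG, or the Grainyhead core AACCGG. The GAGACGCAG search was added after the sequences were seen, and these letters resemble a motif known for the C. elegans zinc-finger protein EOR-1. The first stretch lies at −326 bp from the 5' end of myrf-1 (chrII:10502792-10502942, minus strand), the second at −170 bp from an internal 5' end of myrf-2 (chrX:10188565-10188715, minus strand) and the third at −809 bp from lin-46 (chrV:12967983-12968121, plus strand). Next come the kin-20 summits at −407 bp (chrX:15278096-15278246, minus strand) and −1767 bp (chrX:15279456-15279606, minus strand). The last 3 belong to lin-42: the 133 bp just upstream of the 5' end of isoform a (chrII:1236970-1237102, minus strand), whose summit lies at +34 bp, and the summits at −1178 bp (chrII:1238072-1238222, minus strand) and −3086 bp (chrII:1247046-1247196, minus strand).
myrf-1: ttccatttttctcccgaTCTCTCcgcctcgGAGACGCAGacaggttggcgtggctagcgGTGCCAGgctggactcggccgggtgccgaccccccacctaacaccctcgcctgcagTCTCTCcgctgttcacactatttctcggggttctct
myrf-2: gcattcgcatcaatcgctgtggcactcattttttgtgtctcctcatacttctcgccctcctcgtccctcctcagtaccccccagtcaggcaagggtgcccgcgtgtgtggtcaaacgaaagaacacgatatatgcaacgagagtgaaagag
lin-46: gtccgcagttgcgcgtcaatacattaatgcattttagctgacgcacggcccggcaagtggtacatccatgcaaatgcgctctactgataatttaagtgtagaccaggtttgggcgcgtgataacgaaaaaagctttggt
kin-20 promoter: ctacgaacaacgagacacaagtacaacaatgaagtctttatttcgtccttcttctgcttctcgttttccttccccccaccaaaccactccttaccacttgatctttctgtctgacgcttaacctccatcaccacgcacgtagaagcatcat
kin-20 upstream: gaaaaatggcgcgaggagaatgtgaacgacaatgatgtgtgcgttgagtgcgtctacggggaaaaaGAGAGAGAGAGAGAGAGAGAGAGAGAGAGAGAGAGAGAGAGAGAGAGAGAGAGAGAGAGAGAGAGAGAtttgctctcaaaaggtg
lin-42 upstream of isoform a: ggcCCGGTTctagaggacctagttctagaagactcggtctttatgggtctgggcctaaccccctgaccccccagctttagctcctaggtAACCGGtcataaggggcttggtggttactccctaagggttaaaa
lin-42 intron near isoform a: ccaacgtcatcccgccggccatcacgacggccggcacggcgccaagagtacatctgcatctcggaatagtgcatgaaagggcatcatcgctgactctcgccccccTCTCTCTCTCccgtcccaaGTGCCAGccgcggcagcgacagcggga
lin-42 intron near isoforms b and c: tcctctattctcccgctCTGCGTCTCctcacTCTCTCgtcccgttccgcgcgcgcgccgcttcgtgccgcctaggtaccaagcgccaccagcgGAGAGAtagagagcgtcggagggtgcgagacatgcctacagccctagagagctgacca

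Repeats of GA and the MYRF site stood in different subsets of these windows. GAGAGA occurred in 4 of the 10 windows, against 20.2% of all 3187 summit windows: at myrf-1, at the upstream kin-20 peak and at both intronic lin-42 peaks. In the upstream kin-20 window GA ran uninterrupted for 69 bp, while the longest run at the other GA-bearing windows was 6 bp at myrf-1, 11 bp at the −1178 lin-42 peak and 7 bp at the −3086 lin-42 peak. CTGGCAC, the site known from mouse MYRF, occurred in 2 windows, at myrf-1 and at the −1178 lin-42 peak, against 1.41% of all windows. GAGACGCAG occurred in 2, at myrf-1 and the −3086 lin-42 peak, against 4.36%. Those letters were picked after these windows were seen, so that count is no test. The myrf-1 window held all 3 of these motifs. The windows at myrf-2, at lin-46, at the promoter summits of kin-20 and lin-42 and at the second nhr-85 peak held none of the 12 searched.

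The remaining motifs were rarer at these summits. The nuclear receptor half-site AGGTCA occurred in 1 window, at nhr-85, against 6.40% of all windows, and the run TTTTTTT in the same window, against 14.3%. No window held GATAAG (5.62% of all), CACGTG (5.71%), CAGCTG (4.93%), GGGCGG (8.85%), GCGCGAAA or GGCGGGAA (2.42%), AACCGG (5.30%) or the tRNA B box core GGTTCGA (12.1%). In 301 bp windows, AACCGG was present at the lin-42 summits at +34 and −3086 bp, against 8.53% of all windows. The capitals in the isoform a line mark copies in the printed stretch, which reaches past that window. The GC content of the 10 windows had a median of 50.3% (45.0 to 64.9%), against 46.4% (quartiles 40.7 to 51.7%) for all summit windows. It was 62.3% at myrf-1 and 64.9% and 64.2% at the intronic lin-42 peaks, and the part of GC content in the motif matches was not tested. No member summit lay within 500 bp of a tRNA, snoRNA or snRNA gene. A match is a run of letters in a window and shows no binding by the named factor.

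**Figure D1:**
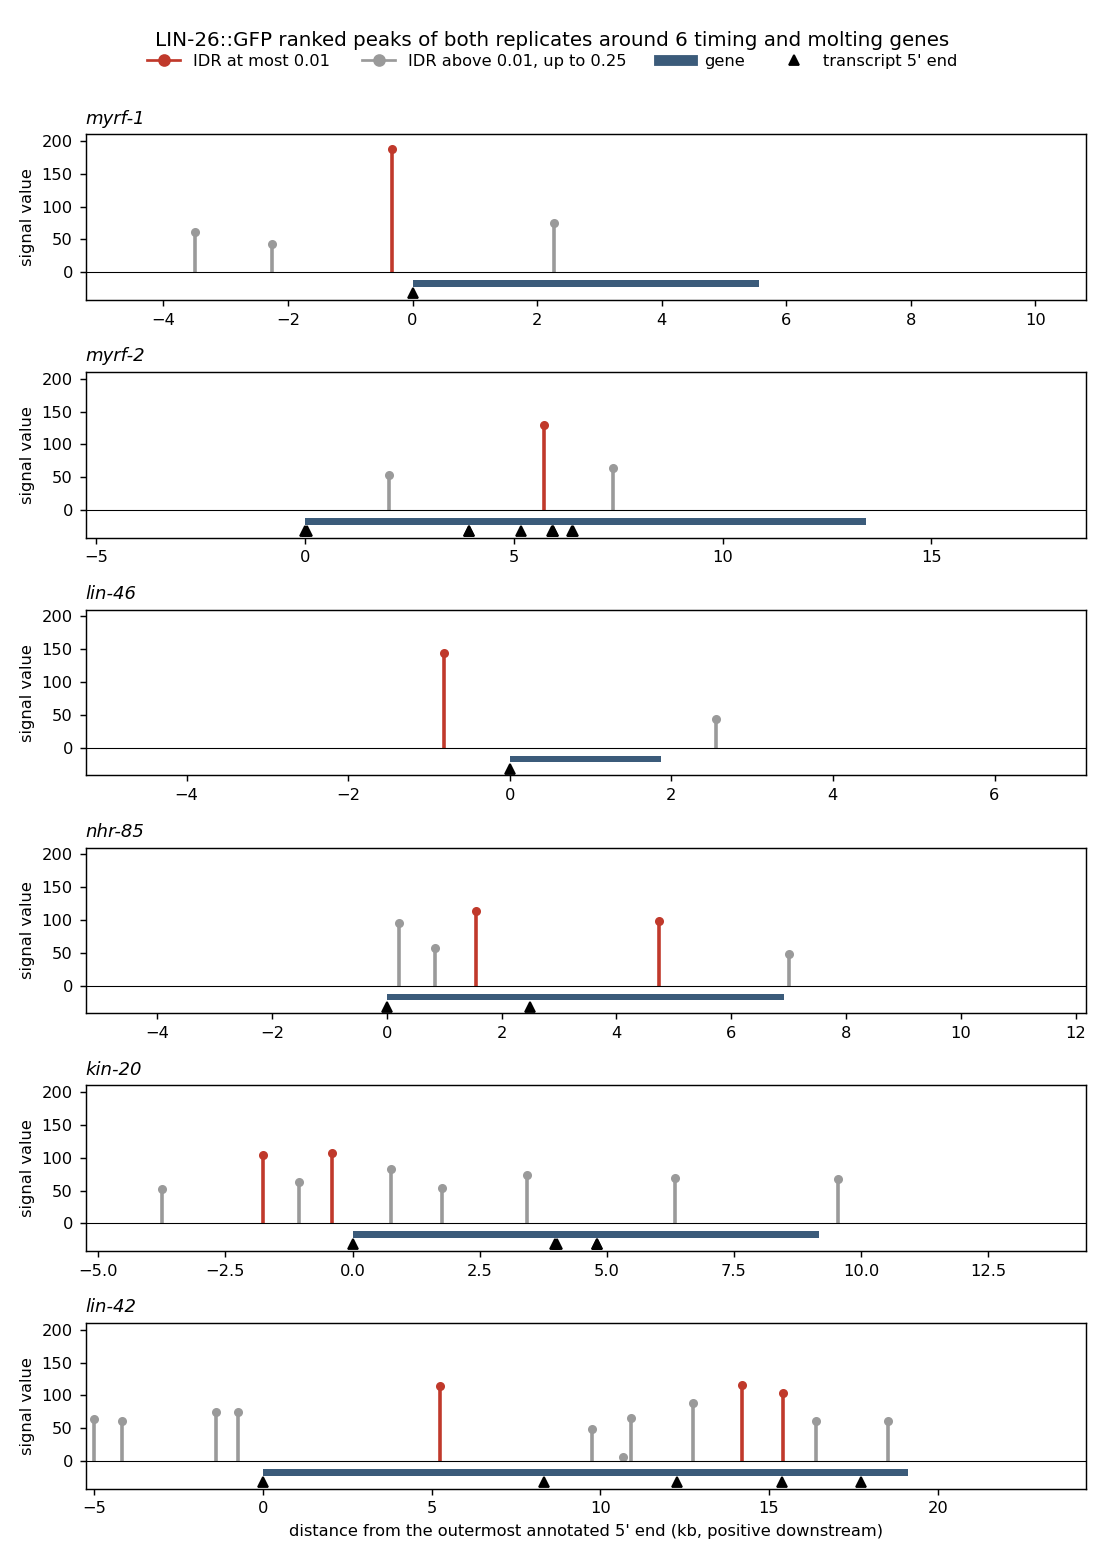
Peaks around the 6 genes in the ranked list of both replicates. The x axis is the distance in kb from the outermost annotated 5' end, positive downstream along the gene, and the y axis is the deposited signal value; red stems passed an IDR of 0.01, grey stems lie between 0.01 and 0.25, the bar is the gene and triangles are annotated 5' ends. The red stems number 1 at myrf-1, myrf-2 and lin-46, 2 at nhr-85 and kin-20 and 3 at lin-42, and those of myrf-2, nhr-85 and lin-42 stand inside the gene.

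myrf-1 carried the strongest and best replicated of the 10 peaks. It encodes a membrane-bound transcription factor that is cleaved to release its DNA-binding part and that is needed for larval transitions and for lin-4 transcription in C. elegans. The gene (WBGene00004134) lies at chrII:10496987-10502541 on the minus strand and has a single annotated 5' end. Its peak spanned chrII:10502699-10503034, with a signal of 187.0 in the list of both replicates, rank 645 of 3187, and an IDR of 0.000232. In the replicates' own ranked lists the signal was 78.4 in replicate 1 (percentile 98.9, IDR 0.00312) and 102.8 in replicate 2 (percentile 98.9, IDR 0.00039). The summits of the replicates lay 47 bp apart. This was the one member peak present in the thresholded lists of both replicates. The summit also lay in the exon of F59B10.7, a non-coding RNA on the opposite strand, 215 bp downstream of its 5' end, so the 2 transcripts cannot be told apart as neighbours of the peak.

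myrf-2, the paralog that acts with myrf-1 in C. elegans, had a peak at an internal promoter window. The gene (WBGene00008999, chrX:10180940-10194377, minus strand) has 11 transcripts with 10 annotated 5' ends. The peak at chrX:10188472-10188807 lay in an intron, −170 bp from the 5' end of transcript F21A10.2a.2 and 5737 bp downstream of the outermost one. Its signal was 130.1, rank 1201, with an IDR of 0.00112. Replicate 1 gave a signal of 43.2 (percentile 95.1, IDR 0.128) and replicate 2 a signal of 85.9 (percentile 98.5, IDR 0.00407), so that only replicate 2 passed the threshold. The replicate summits were 2 bp apart, the closest of the 10 peaks.

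lin-46 encodes a gephyrin-like protein that promotes the switch to late larval fates in C. elegans. The gene (WBGene00003031, chrV:12968855-12970730, plus strand) has 1 annotated 5' end, and its peak at chrV:12967878-12968213 lay outside genes at −809 bp. The signal was 145.0, rank 998, with an IDR of 0.000568. Replicate 1 gave a signal of 42.8 (percentile 94.9, IDR 0.0351) and replicate 2 a signal of 109.4 (percentile 99.0, IDR 0.000438), with summits 6 bp apart. Only replicate 2 passed the threshold of 0.01. The summit was nearer to another gene, at −64 bp from the 5' end of R186.8 on the opposite strand, and also fell in the promoter window of R186.3 at −836 bp. It was the only one of the 6 promoter summits shared with the window of another protein-coding gene.

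nhr-85 encodes a nuclear hormone receptor related to Rev-Erb, which acts in the pulsed transcription of lin-4 in C. elegans. The gene (WBGene00003675) lies at chrI:13055201-13062122 on the minus strand, with 2 annotated 5' ends 2497 bp apart. Its promoter peak at chrI:13060402-13060737 lay in an intron, −945 bp from the internal 5' end of W05B5.3b and 1552 bp downstream of the outermost end. The signal was 113.3, rank 1565, with an IDR of 0.00129. Replicate 1 gave 41.2 (percentile 94.2, IDR 0.0356) and replicate 2 gave 82.5 (percentile 98.4, IDR 0.00184), and only replicate 2 passed. A second peak, with a signal of 99.0 and an IDR of 0.00727, had its summit 2251 bp downstream of that internal end, in coding sequence of nhr-85 and the 3' UTR of npr-14 on the opposite strand. It was in neither replicate's own list (IDR 0.620 in replicate 1 and 0.154 in replicate 2) and not in the conservative list.

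kin-20 encodes a casein kinase of the Doubletime family, which in Drosophila phosphorylates Period. The gene (WBGene00002203, chrX:15268602-15277764, minus strand) has 8 transcripts and 5 annotated 5' ends. Its promoter peak at chrX:15278003-15278338 lay outside genes at −407 bp from the outermost end, with a signal of 107.3, rank 1757, and an IDR of 0.00166. Replicate 1 gave 57.6 (percentile 97.9, IDR 0.0264) and replicate 2 gave 52.1 (percentile 95.3, IDR 0.0258), with summits 7 bp apart. Neither replicate passed the threshold by itself, although the peak was in the conservative list. A second peak at chrX:15279363-15279698 had its summit at −1767 bp, with a signal of 104.6 and an IDR of 0.00337. This peak covers the 69 bp GA run shown above and the exons of 2 non-coding RNAs named C02D4.15, 1 on each strand. It also overlaps another, C02D4.5 (chrX:15279339-15279459), whose nearest end lay 72 bp from the summit. Replicate 1 gave 57.9 (percentile 97.9, IDR 0.0846) and replicate 2 gave 45.9 (percentile 93.0, IDR 0.0443), with summits 114 bp apart, the widest gap of the 10. How reads from so long a repeat were placed was not tested.

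lin-42, the C. elegans relative of the clock gene Period, cycles with the molts and dampens microRNA transcription. It is the longest of the 6 genes (WBGene00018572, chrII:1233236-1252359, minus strand, 19124 bp), with 7 transcripts and 5 annotated 5' ends, and it held 3 peaks. The promoter peak at chrII:1236767-1237102 had its summit in the 5' UTR of isoform a, at +34 bp, which is 15424 bp downstream of the outermost end. Its signal was 103.7, rank 1895, with an IDR of 0.0046. It was the weakest of the 6 promoter peaks, and it passed the threshold in neither replicate: replicate 1 gave 39.8 (percentile 93.4, IDR 0.108) and replicate 2 gave 63.8 (percentile 97.3, IDR 0.0121). Both other lin-42 peaks were stronger and lay in introns. The peak at chrII:1237979-1238314, −1178 bp from the 5' end of isoform a, had a signal of 116.0 (rank 1497, IDR 0.00116). In replicate 1 it had 44.0 (IDR 0.0412) and in replicate 2 it had 64.1 (IDR 0.00555). The peak at chrII:1246953-1247288, −3086 bp from the 5' end of isoforms b and c, had a signal of 114.8 (rank 1527, IDR 0.000926). There replicate 1 gave 47.3 (IDR 0.0633) and replicate 2 gave 73.9 (IDR 0.00173), and the summit lay in an exon of the non-coding RNA F47F6.15, with F47F6.13 76 bp away. These intronic peaks passed in replicate 2 and not in replicate 1.

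Among the 6 promoter summits, 3 were nearest the outermost 5' end (myrf-1, lin-46, kin-20) and 3 nearest an internal one (myrf-2, nhr-85, lin-42). Signal ordered the promoter peaks as myrf-1, lin-46, myrf-2, nhr-85, kin-20 and lin-42. The lists give 1 value a peak, so which neighbours in that order differ beyond replicate error cannot be said. The order changed within replicates: lin-46 led in replicate 2, and kin-20 was second in replicate 1 and last in replicate 2. The median signal was 121.7 over the 6 promoter peaks (103.7 to 187.0) and 112.5 over all 1267 peaks with a summit in a promoter window. Of the 6, 4 were above the median of the whole list. The highest, myrf-1, was at percentile 79.8 of the whole list of 3187.

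**Figure D2:**
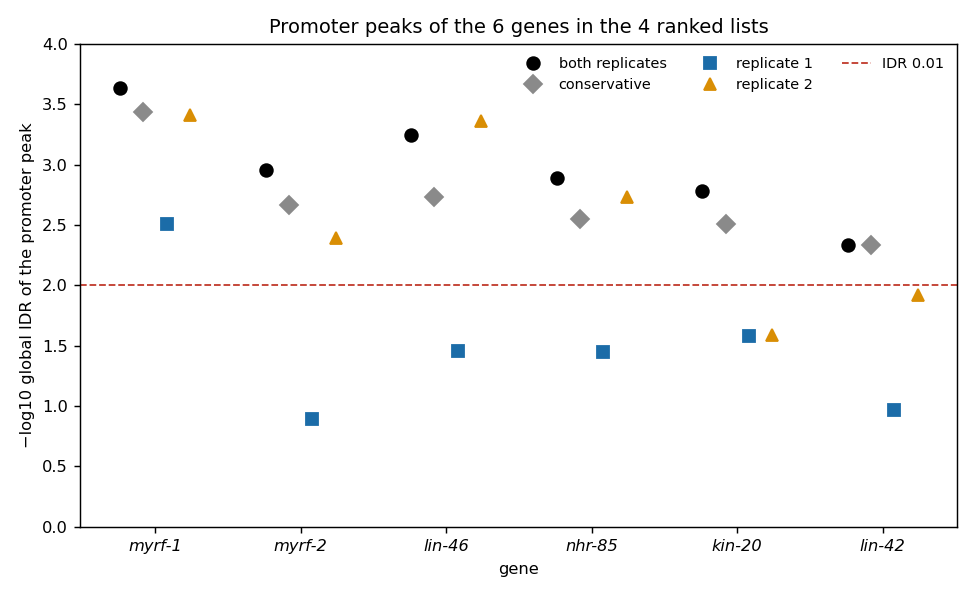
Reproducibility of the 6 promoter peaks in the 4 ranked lists. The x axis lists the genes, and the y axis is the −log10 global IDR, as deposited, of the matching ranked peak, with the dashed line at an IDR of 0.01; circles are both replicates, diamonds the conservative list, squares replicate 1 and triangles replicate 2. All 6 circles and diamonds lie above the line, 4 triangles do and 1 square does.

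Replicate 2 accounted for most of the single-replicate calls. The promoter summit rule was met by 6 of the 6 genes in the conservative list (5.63% of all genes), by 1 in the list of replicate 1 (2.47%) and by 4 in that of replicate 2 (4.51%). Of the 10 peaks, 1 was shared with the replicate 1 list, against 34.5% of all 3187 peaks. In the replicate 2 list there were 6, against 57.1%, and in both lists there was 1, against 29.2%. Sharing meant an overlap of at least 50% of the shorter peak. The lists differ in length, with 1191 nuclear peaks past the threshold in replicate 1 and 2083 in replicate 2. The replicate lists come from the same reads as the list that chose the genes, so they are no independent test of it.

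Below the threshold, all 10 peaks had a matching ranked peak in each replicate, as did 93.0% of all peaks. The 6 promoter peaks had a median percentile of 95.0 (93.4 to 98.9) among the 55940 ranked nuclear peaks of replicate 1, and of 98.5 (95.3 to 99.0) among the 75474 of replicate 2. Over the 2963 peaks of the list matched in both replicates, the medians were 96.8 in replicate 1 and 97.9 in replicate 2. Percentiles were higher in replicate 2 for 8 of the 10 peaks, and also for 71.3% of the 2963 peaks matched in both, and the ranked list of replicate 2 is the longer one. Both exceptions were at kin-20. At an IDR of 0.05, 4 of the 6 promoter peaks were matched in replicate 1 (myrf-1, lin-46, nhr-85 and kin-20) and all 6 in replicate 2, against 48.5% and 75.9% of all 3187 peaks. Replicate summits of the promoter peaks lay a median of 8.5 bp apart (2 to 47), and those of the 10 peaks 19.5 bp (2 to 114), against 28 bp (quartiles 10 to 56.5) over the 2963 peaks matched in both replicates.

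**Figure D3:**
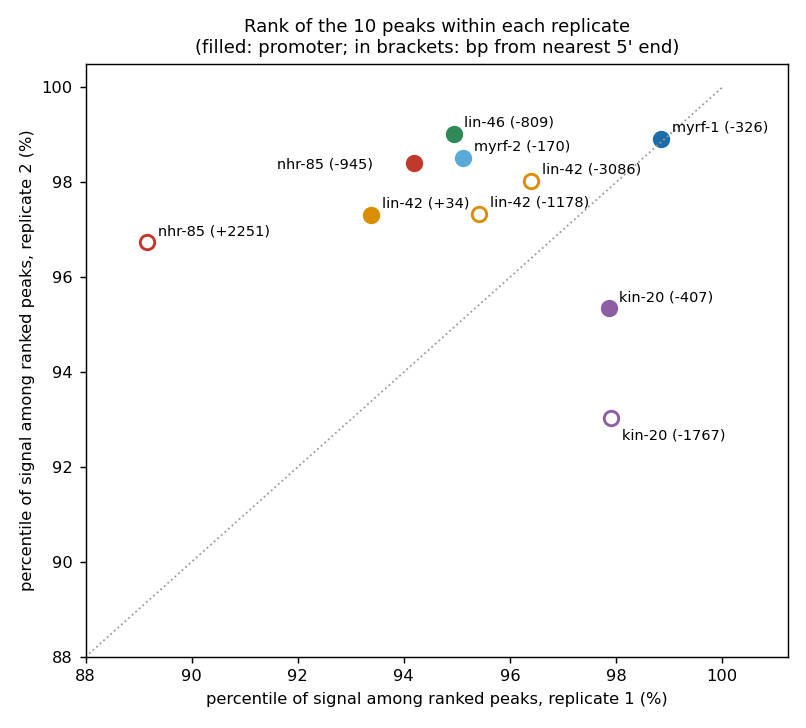
Rank of the 10 peaks within each replicate. The axes are percentiles (%) of signal among the ranked nuclear peaks of replicate 1 (x) and replicate 2 (y), filled points are promoter peaks, open points are other peaks, and the dotted line marks equal percentiles. The myrf-1 peak is at 98.9 on both axes, 8 points lie above the line, and the kin-20 points lie below it.

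Weaker peaks also lay around the same genes. The list of both replicates held 124 ranked peaks overlapping the genes or 5 kb around them. Of their summits, 123 lay within those stretches, which is 1.06 per kb, against 0.849 per kb over the nuclear chromosomes. Of the 124, 19 had an IDR of at most 0.05 and 10 passed 0.01, against 3187 of all 85149 ranked nuclear peaks past 0.01. Peaks past 0.01 numbered 0.0861 summits per kb here, against 0.0318 over the nuclear chromosomes. The genes were chosen for holding such a peak, so neither difference is a test. Ranked peaks numbered 41 at lin-42, 30 at kin-20, 18 at nhr-85, 13 at myrf-2, 12 at lin-46 and 10 at myrf-1. The conservative list kept 8 of the 10, against 71.5% of all peaks, leaving out the upstream kin-20 peak and the second nhr-85 peak. Just inside the threshold stood that nhr-85 peak (IDR 0.00727) and the lin-42 promoter peak (IDR 0.0046). Just outside it stood a summit 218 bp downstream of the outermost 5' end of nhr-85 (signal 95.2, IDR 0.0103), beside the edge of the promoter window. Close behind came a lin-42 summit 500 bp downstream of the 5' end of isoform e (signal 88.6, IDR 0.0106), and one 2278 bp inside myrf-1 (signal 75.5, IDR 0.0128). At kin-20 the nearest was 750 bp inside the gene (signal 82.4, IDR 0.0217). By contrast, the next summits at myrf-2 (IDR 0.0727) and lin-46 (IDR 0.0828) were well outside.

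The other genes of the pathway were taken from a list of 25 protein-coding timing and molting regulators, including the 6, and 5 microRNA genes. Of the 25, 8 held a promoter summit (32%). The 6 were set apart by that same rule, which lowers the share among the rest, so neither share is a test. Of the 19 protein-coding genes beside the 6, 2 held a promoter summit (10.5%), against 6.65% of all genes. These were puf-9, a Pumilio-family RNA-binding protein gene (signal 262.1, −313 bp, in both replicates' own lists), and lin-66, a heterochronic gene that limits lin-28 (signal 166.0, −466 bp, in the replicate 2 list). Signal was higher at puf-9 than at myrf-1, and at lin-66 it was lower than at myrf-1 and higher than at lin-46. The puf-9 peak spanned chrX:5841273-5841356, which is narrower than the median width of 336 bp over the list. Its summit lay in exons of the non-coding RNAs W06B11.7 and W06B11.9. The median IDR of the best promoter summit was 0.223 over the 19. Best promoter summits of the early regulators lin-14 (IDR 0.0724) and lin-28 (0.275) did not pass. Those of the adult-fate regulators lin-29 (0.434) and lin-41 (0.733) did not pass either. Nor did those of the steroid receptor gene daf-12 (0.0858), hbl-1 (0.403), blmp-1 (0.342) and the molting receptor gene nhr-23 (0.526). In the gene or 5 kb around it, lin-14, lin-29, daf-12, hbl-1 and blmp-1 each had 2 peaks of the thresholded list. There was 1 at lin-41, and 0 at lin-28 and at nhr-23. A window reaching 2000 bp before the 5' end gave blmp-1 a promoter summit.

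In the replicates' own lists, replicate 1 had 1 of the 19 (5.26%, against 2.47% of all genes), which was puf-9. Replicate 2 had 3 (15.8%, against 4.51%), namely puf-9, lin-66 and ain-1, a GW182-family gene of the microRNA machinery with an IDR of 0.0564 in the list of both replicates. At an IDR of 0.05 the Grainyhead gene grh-1 joined (IDR 0.0337, −51 bp), which made 3 of 19 (15.8%), against 11.6% of all genes at that threshold. In the gene or 5 kb around it, 12 of the 19 had a peak (63.2%), against 29.4% of all genes. They are longer genes, with a median length of 5.91 kb, against 2.03 kb for all protein-coding genes, and the part of length in that share was not tested. The 6 genes had a median length of 8.04 kb.

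Among the microRNA genes, mir-241 of the let-7 family held a summit at −317 bp (signal 114.6, IDR 0.00191), which was also in the replicate 2 list. The summit at lin-4, a target of the myrf-1 and nhr-85 products in C. elegans, lay at −292 bp and did not pass (signal 80.4, IDR 0.0270). At mir-48 the IDR was 0.394, and mir-84 and let-7 had no ranked summit in the window. In the gene or 5 kb around it, mir-48 and mir-241 each had 1 peak of the thresholded list, and lin-4, mir-84 and let-7 had 0. These windows were set from the annotated 5' end of each microRNA gene. Whether transcription starts there was not tested, so a missing summit does not speak for the whole promoter.

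Molting effectors build, process or shed the cuticle, and 15 of them were matched by name. Only mlt-7, a peroxidase gene needed for cuticle formation, held a promoter summit (signal 101.8, −159 bp, IDR 0.00799), and it was in no replicate list and not in the conservative one. That is 1 of 15 (6.67%), against 6.65% of all genes. At an IDR of 0.05 the megalin-like receptor gene lrp-1 joined it (IDR 0.0370), which made 2 of 15, against 11.6% of all genes. Any ranked promoter summit was present at 6 of the 15 and at 19 of the 19 other protein-coding timing genes, against 61.6% of all genes. Genes with more annotated 5' ends have more window sequence, and the part of that in these shares was not tested. In the gene or 5 kb around it, 3 of the 15 (20%) had a peak, against 29.4% of all genes. The median length of the 15 was 5.23 kb, against 2.03 kb for all protein-coding genes.

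**Figure D4:**
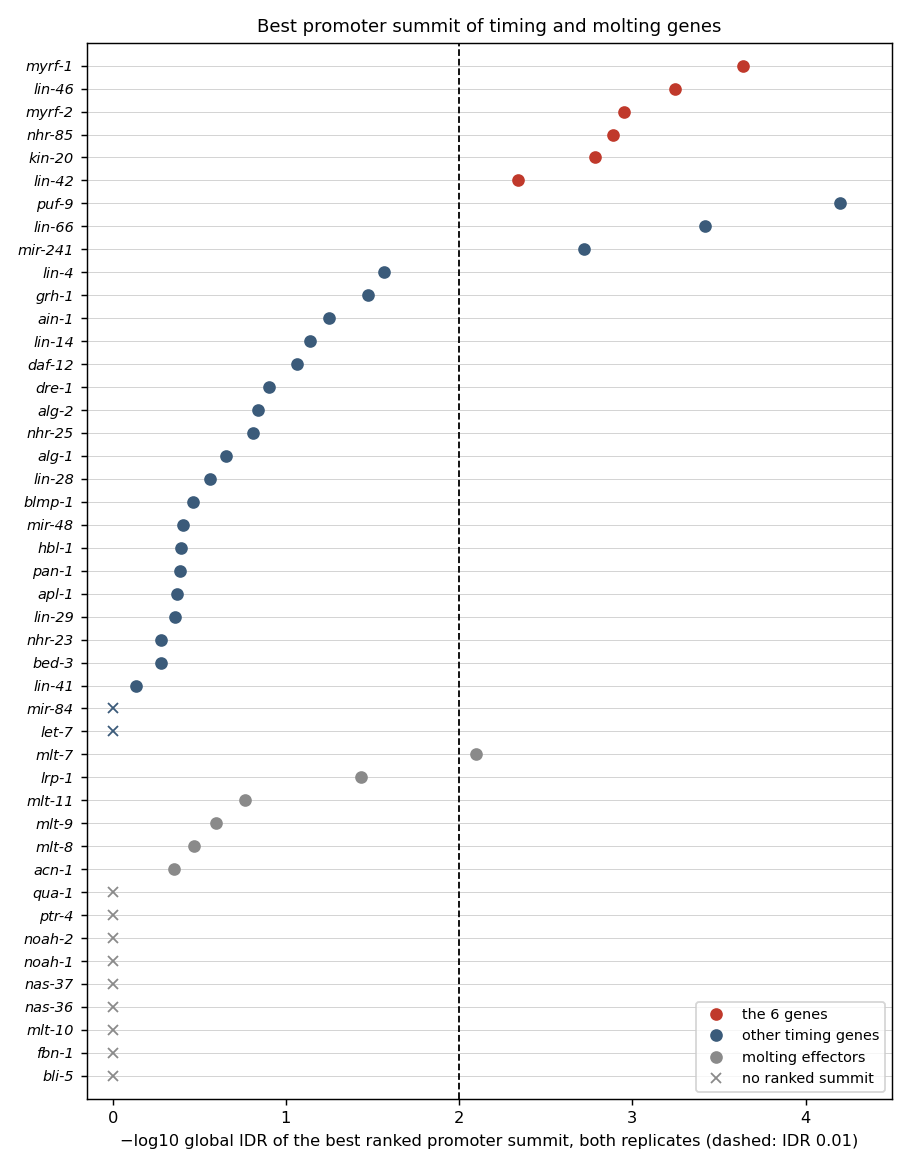
Best promoter summit of each timing and molting gene. The x axis is the −log10 global IDR, as deposited, of the list of both replicates before thresholding, with the dashed line at an IDR of 0.01; red points are the 6 genes, blue the other timing genes, grey the molting effectors, and crosses have no ranked summit. Beyond the line stand the 6 genes, puf-9, lin-66, mir-241 and mlt-7.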

How the data were processed

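The starting point was 8 peak lists on assembly ce11, of which 4 were ranked by IDR and 4 thresholded. Per the text deposited with the samples, each was made from the alignments of 1 or both replicates against a control alignment. For the caller, the aligner and the inputs of IDR, a name or version was not given in the sources used here. Signal values, as deposited for each peak, are not scaled between lists, so ranks were compared within a list. The deposited score has a lowest value of 830 in each thresholded list, equal to an IDR of 0.01. The −log10 global IDR, as deposited in the ranked lists, served for other thresholds. The lists carry no read counts, so depth is unknown. Another 4 columns of per-input values without sample names were not used.

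Coordinates count from 1. Annotation was Ensembl release 115 of WBcel235, with 29314 protein-coding 5' ends. All peak ends lay within that assembly's chromosome lengths. The microRNA let-7 came from RefSeq on the same assembly, and the effector name pqn-47 was not matched. Motifs were searched on both strands. With 1 group of 2 replicates there is no test between conditions. Peak matching and motif search were tested on simulated data. The 6 genes and the gene and motif lists were chosen with earlier results of these data known. Named are the 6 genes, list genes with a promoter summit, genes whose window or body holds a member promoter summit, and non-coding genes within 500 bp; other list genes named, such as lin-14 or ain-1, were chosen after their values were seen. Python 3.11.15, numpy 2.4.6, pandas 2.3.3 and matplotlib 3.10.9 were used.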

Additional observations from a re-analysis of the deposited data

How the results depend on the processing

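Of the 6 genes, 6 kept a promoter summit in the conservative list; a looser IDR and a wider window keep all 6 by the rule that chose them. Single replicates gave 1 to 4, an IDR of 0.001 gave 2 (myrf-1, lin-46; 2.81% of all genes) and the outermost 5' end alone gave 3 (myrf-1, lin-46, kin-20; 5.87%). A narrower window, 500 bp before and 100 bp after the 5' end, gave 4, without lin-46 and nhr-85 (4.18%). The 25 timing genes, which include the 6, gave 8, single replicates 2 to 7, an IDR of 0.001 gave 4, the outermost end 5 and the narrower window 6. Molting effectors gave 1, the conservative list 0, single replicates 0 to 0, an IDR of 0.05 gave 2 and 0.001 gave 0. The count of peaks around the genes, 10 in the list of both replicates, was 2 in the replicate 1 list and 6 in that of replicate 2. Of those 2, the kin-20 peak is not among the 10. The count was 19 at an IDR of 0.05 and 3 at 0.001. With replicate peaks at an IDR of 0.05, the replicate 1 match held for 4 of 6 promoter peaks and the match in both replicates for 4, against 1 and 1 at 0.01. Other overlap rules left these counts as they were. In 101 bp windows the MYRF site was found at 1 peak (myrf-1) and GAGACGCAG at 1 (myrf-1). GAGACGCAG was added after seeing the data, as was the use of RefSeq for let-7. No paired analysis was possible because there was 1 group and no fit between groups. Depth is unknown, so how it limits the replicate lists was not tested.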

Other observations

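In the list of replicate 1 alone, kin-20 held a further peak that the list of both replicates does not. It spanned chrX:15275393-15275668, inside the gene and −1742 bp from the 5' end of F46F2.2a, with a signal of 38.4 and an IDR of 0.00871. The IDR at the same place was 0.117 in the ranked list of replicate 2 and 0.0631 in the conservative ranked list.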
